A study of Mus musculus with 13 samples.

Results

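The genes of glycolysis, glycogen storage and the pentose phosphate pathway were examined in sciatic nerve of diabetic mice. The set was a list of 41 genes in 8 groups, from glucose uptake to the hexosamine pathway, and a gene counted as measured where the table of expression values had a row under its symbol. Of the 41 genes 33 were measured, among 15437 genes in all. Hk2, Gpi1, Gapdh, Pgk1, Pgam1, Eno1, Ldha and G6pdx were not analysed here.

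The diabetic animals were db/db mice, homozygous for a mutation that disrupts the leptin receptor, which become obese and diabetic. They were compared with db/+ mice, which carry 1 mutant and 1 normal allele. All mice were of the BKS strain and 24 weeks old, and no treatment is given in the labels. There were 6 db/db arrays (samples 110, 111, 112, 409, 410 and 411) and 7 db/+ arrays (samples 101, 103, 104, 105, 106, 404 and 407), each of total RNA from sciatic nerve. The values were log2 expression levels normalized by the authors with RMA. On this scale a difference of 1 is a fold of 2, and RMA shrinks the differences of dim genes. Whether every numbered sample came from its own animal is not stated in the labels, so the p-values measure the spread between these samples, which may be technical in part.

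Glycolysis breaks glucose down to pyruvate, which is either oxidised in mitochondria or reduced to lactate. The pentose phosphate pathway branches off at the first phosphorylated sugar and makes NADPH, which cells use for lipid synthesis and against oxidants, as well as sugars for nucleotides. Glycogen is the stored form of glucose. In peripheral nerve, Schwann cells, the cells that wrap axons, take up glucose, and they are thought to pass lactate on to axons. Many steps have isoforms with different cell types of origin, such as the muscle enolase Eno3 and the neuronal enolase Eno2.

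The arrays differed in more than genotype. The mean of 16 neuronal genes was 6.34 to 6.93 in db/db arrays, against 7.10 to 7.96 in db/+ 105, 404 and 407, while db/+ 101, 103, 104 and 106 stood far above these at 10.99 to 11.73. Each comparison was therefore made with all 7 db/+ arrays and again with db/+ 105, 404 and 407 alone. This division comes from the measured values and not from the labels, and both comparisons use the same 6 db/db arrays. The mean of 21 skeletal muscle genes also varied widely within both genotypes, from 6.10 to 10.72 in db/db and from 6.63 to 11.51 in db/+ arrays. In limma 0 of the 21 passed in either comparison (2 had an unadjusted p under 0.05 over all arrays and 0 against db/+ 105, 404 and 407). Most differences were negative all the same, in 20 of the 21 over all arrays (median -0.83) and in all 21 in the smaller comparison (median -1.05). Adipocyte genes had a mean of 12.74 to 12.86 in db/db and 11.49 to 12.48 in db/+ arrays. Over all arrays 10 of 14 genes passed the threshold, all higher in db/db (71.4%, beside 13.4% of all genes). Against db/+ 105, 404 and 407, 6 of 14 passed, all higher (42.9%, beside 6.12%). Macrophage genes had a mean of 11.58 to 12.15 in db/db and 11.24 to 12.28 in db/+ arrays. Over all arrays 5 of the 15 were higher in db/db and 0 lower (33.3% higher, beside 13.4% of all genes). Against db/+ 105, 404 and 407 in limma 0 of the 15 passed (1 had an unadjusted p under 0.05). The signal from the 3′ end of the actin control minus that from its 5′ end, a sign of RNA quality, was 0.68 ± 0.18 in db/db (SD, n = 6) and 1.02 ± 0.31 in db/+ arrays (SD, n = 7). Every db/db array, at 0.92 or less, was below every db/+ array (0.96 to 1.39) other than db/+ 407 (0.40). For the Gapdh control the same measure was 0.73 ± 0.13 in db/db and 0.86 ± 0.25 in db/+ (SD, n = 6 and 7). Its ranges overlapped, at 0.50 to 0.87 in db/db and 0.55 to 1.34 in db/+. The part of RNA quality in the differences was not tested. The nerve genes Mbp and Pmp22 were abundant in both groups, at 13.08 ± 0.12 and 13.62 ± 0.12 in db/db (SD, n = 6) and 13.28 ± 0.16 and 13.84 ± 0.15 in db/+ (SD, n = 7). Most other myelin and Schwann cell markers were lower in db/db over all arrays. Of the 13 measured, Mbp and Pmp22 included, 10 were lower (76.9%, beside 11.7% of all genes) and 0 higher, with a median difference of -0.77. The list mean was 9.63 to 11.03 in db/db and 10.61 to 11.73 in db/+ arrays. Against db/+ 105, 404 and 407 in limma 0 of the 13 passed (4 had an unadjusted p under 0.05), and 12 had a negative difference, with a median of -0.51. Their part in the differences given here was not tested. In whole nerve, fewer cells of a type and less RNA per cell cannot be told apart.

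In db/db nerve, 3 of the 7 measured genes of upper glycolysis (Pfkl, Pfkfb3 and Tpi1) and Pgd of the pentose phosphate pathway were higher in both comparisons, and Khk, of fructose breakdown, was lower in both. Over all arrays 12 of the 33 genes (36.4%) passed the threshold, an adjusted p of 0.05 in limma with Benjamini-Hochberg adjustment over all 15437 genes, of which 25.1% passed. Hk3, Pfkl, Pfkfb3, Tpi1, Fbp2, Pgd and Taldo1 were higher in db/db (7 genes, 21.2%, beside 13.4% of all genes). Slc2a3, Eno2, Ldhb, Khk and Pygb were lower (5 genes, 15.2%, beside 11.7% of all genes). The median difference of the 33 genes was 0.14, beside 0.02 for all genes.

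Against db/+ 105, 404 and 407 alone, 6 of the 33 genes (18.2%) passed, beside 12.9% of all genes. Pfkl, Pfkfb3, Tpi1 and Pgd were higher in db/db (12.1%, beside 6.12% of all genes), and Khk and Gfpt2 were lower (6.06%, beside 6.78%). The median difference was 0.10, beside -0.05 for all genes. The comparisons share their db/db arrays and 3 db/+ arrays, so that one is no independent check of the other. Pfkl, Pfkfb3, Tpi1, Pgd and Khk passed in both, 7 genes passed over all arrays alone, Gfpt2 passed against db/+ 105, 404 and 407 alone, and 20 genes passed in neither. Beside these, 1436 of all 15437 genes passed in both, 802 of them higher in db/db and 634 lower. Of all genes, 2431 passed over all arrays alone, 556 against db/+ 105, 404 and 407 alone, and 11014 in neither. In 3 genes (Pfkl, Tpi1 and Pgd) every db/db array was above every db/+ array, beside 6.17% of all genes, and in 1 (Eno2) every db/db array was below, beside 3.51%, or 9.68% in either direction. Against db/+ 105, 404 and 407 the arrays did not overlap in 4 genes with db/db above (Pfkl, Tpi1, Aldoa and Pgd, beside 8.98% of all genes) and 3 with db/db below (Eno2, Khk and Gfpt2, beside 9.99%), or 19.0% of all genes in either direction.

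Leaving out the arrays highest in muscle transcripts ended some of these calls and added others, and it also left fewer arrays. Over all arrays 10 of the 33 genes then passed, beside 15.7% of all genes, from 12 and 25.1%. Pfkfb3, Khk, Pygb and Taldo1 no longer passed, while Pfkm and Pygm then passed as lower in db/db. The part of the smaller number of arrays in the lost calls was not tested. Without db/+ 101 and 407 and db/db 112 and 411, the arrays with the highest muscle list means, Pgd (0.73), Pfkl (0.91) and Tpi1 (0.40) still passed over all arrays (limma adjusted p = 0.00553, 0.0239 and 0.025), and Pfkfb3 (0.64) and Khk (-0.33) did not (limma adjusted p = 0.0669 and 0.0967). Against the 2 db/+ arrays then left of the smaller comparison, 2 genes passed, Fbp2 (1.40, limma adjusted p = 0.0423) and Pygm (-1.18, limma adjusted p = 0.0433), beside 3.52% of all genes. Pgd stood at 0.60 there (limma adjusted p = 0.056). This omission was chosen after the data were seen. With the muscle list mean as a covariate and no array left out, Hk3 and Taldo1 no longer passed over all arrays. There 10 of the 33 genes passed, beside 21.2% of all genes. In the smaller comparison Pfkl, Tpi1 and Khk no longer passed, while Pfkfb3, Pgd and Gfpt2 still did and Eno2 and Fbp2 were added. That made 5 of the 33 genes, beside 9.39% of all genes.

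**Figure D1:**
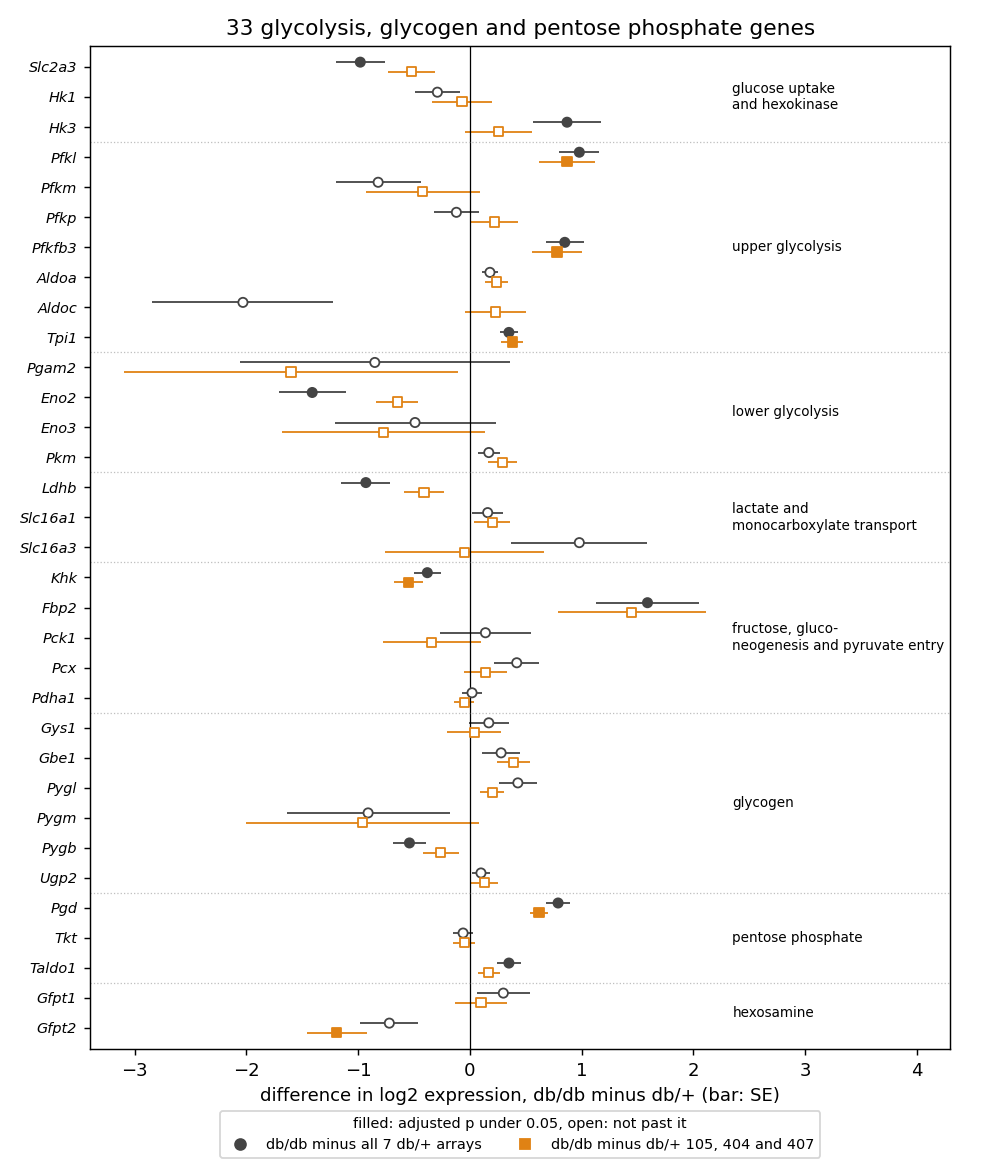
Difference in log2 expression, db/db minus db/+ (horizontal axis), for the 33 measured genes (rows, by group), with the standard error of the limma fit as a bar. Circles use all 7 db/+ arrays and squares use db/+ 105, 404 and 407, and filled symbols mark an adjusted p under 0.05. Pfkl, Pfkfb3, Tpi1 and Pgd lie to the right and Khk to the left with filled symbols in both, while Aldoc lies at -2.03 with all arrays and at 0.23 with the 3 db/+ arrays.

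The start regions of the 5 genes that passed in both comparisons are shown because these genes differed whether or not the db/+ arrays high in neuronal transcripts were used. Each window runs from 250 bases before to 50 bases after the annotated start in RefSeq (GRCm38.p6), written 5′ to 3′ along the gene's own strand: Pgd at chr4:149166656-149166955 (minus strand, the first of 2 windows), Pfkl at chr10:78009758-78010057 (minus strand), Pfkfb3 at chr2:11553880-11554179 (minus strand, the first of 2 windows), Tpi1 at chr6:124814109-124814408 (minus strand) and Khk at chr5:30921309-30921608 (plus strand). Capitals mark matches, on either strand, to ACGTG or GCGTG (cores to which hypoxia-inducible factors bind), to CACGTG (the E-box, which contains ACGTG on both strands) or to TGACNNNGC (the core of the antioxidant response element).
Pgd: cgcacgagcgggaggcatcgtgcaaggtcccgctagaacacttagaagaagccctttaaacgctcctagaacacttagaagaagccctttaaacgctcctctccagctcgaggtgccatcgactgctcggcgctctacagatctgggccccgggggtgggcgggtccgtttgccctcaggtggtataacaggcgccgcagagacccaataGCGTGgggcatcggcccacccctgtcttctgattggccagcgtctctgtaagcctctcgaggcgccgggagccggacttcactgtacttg
Pfkl: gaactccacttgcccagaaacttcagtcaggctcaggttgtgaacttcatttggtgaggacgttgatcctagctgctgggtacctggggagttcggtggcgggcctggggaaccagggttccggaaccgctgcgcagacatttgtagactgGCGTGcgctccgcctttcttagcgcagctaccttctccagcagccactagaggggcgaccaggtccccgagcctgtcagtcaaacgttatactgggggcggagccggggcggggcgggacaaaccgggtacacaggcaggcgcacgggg
Pfkfb3: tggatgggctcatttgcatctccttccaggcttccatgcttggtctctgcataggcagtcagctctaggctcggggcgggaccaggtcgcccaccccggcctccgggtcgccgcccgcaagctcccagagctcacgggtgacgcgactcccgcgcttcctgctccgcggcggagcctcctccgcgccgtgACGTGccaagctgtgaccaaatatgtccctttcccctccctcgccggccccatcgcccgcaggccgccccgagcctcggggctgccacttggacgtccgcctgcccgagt
Tpi1: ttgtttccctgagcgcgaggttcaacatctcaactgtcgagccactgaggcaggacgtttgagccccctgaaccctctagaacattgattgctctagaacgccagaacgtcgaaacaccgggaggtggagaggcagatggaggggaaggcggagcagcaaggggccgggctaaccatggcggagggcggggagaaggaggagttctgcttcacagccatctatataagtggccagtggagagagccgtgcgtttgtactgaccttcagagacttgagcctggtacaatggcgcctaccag
Khk: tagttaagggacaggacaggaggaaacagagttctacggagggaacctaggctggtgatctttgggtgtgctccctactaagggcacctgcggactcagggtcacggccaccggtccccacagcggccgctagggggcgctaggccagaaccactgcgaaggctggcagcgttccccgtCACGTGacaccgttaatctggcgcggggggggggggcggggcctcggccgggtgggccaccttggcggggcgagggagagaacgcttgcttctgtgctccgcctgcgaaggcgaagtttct
The windows of Pgd and Pfkl each held 1 GCGTG, that of Pfkfb3 held 1 ACGTG, that of Khk held 1 CACGTG, and that of Tpi1 held none of the 4. The second windows, not printed, held 1 TGACNNNGC for Pgd, and for Pfkfb3 2 GCGTG and 1 CACGTG, which is also counted as 2 ACGTG. Among 32851 windows in the table, 32.4% held GCGTG, 19.6% held ACGTG, 7.15% held CACGTG and 12.4% held TGACNNNGC. Of 32 measured members with a window, 18 held ACGTG and 18 held GCGTG in at least 1 window, beside 21.8% and 35.2% of 27025 genes, with neither base composition nor the number of windows matched. A match describes these letters and is no evidence of binding.

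At the entry of glucose, the neuronal glucose transporter gene Slc2a3 (GLUT3) was lower in db/db over all arrays. It ranged from 7.10 through a median of 7.55 to 8.0 in db/db, against 7.77 through 8.76 to 9.11 in db/+. The difference was -0.98 (SE 0.22, limma adjusted p = 0.00644) over all arrays and -0.52 (SE 0.21, limma adjusted p = 0.136) against db/+ 105, 404 and 407, which held 7.77, 8.46 and 8.06. The 4 arrays high in neuronal transcripts, at 8.76 to 9.11, were the highest of all. The ubiquitous hexokinase gene Hk1 averaged 7.34 ± 0.37 in db/db (SD, n = 6) and 7.63 ± 0.37 in db/+ (SD, n = 7), a difference of -0.29 that did not pass (limma adjusted p = 0.294).

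Hk3, a hexokinase found mainly in leukocytes, was higher in db/db over all arrays. It ranged from 9.27 through 9.62 to 10.56 in db/db, against 8.36 through 8.51 to 9.92 in db/+, a difference of 0.87 (SE 0.30, limma adjusted p = 0.0474). In db/+ 105, 404 and 407 it stood at 9.48, 9.10 and 9.92, within the db/db range or close to it, and the difference was 0.26 (SE 0.30, limma adjusted p = 0.635). The macrophage list mean lay at 11.24 to 11.40 in db/+ 101, 103, 104 and 106 and at 11.55 to 12.28 in the other db/+ arrays, and its part in the Hk3 difference was not tested. The call over all arrays was lost when any 1 array other than db/+ 105, db/+ 407 or db/db 112 was left out, with adjusted p up to 0.101 and differences of 0.71 to 1.04.

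Phosphofructokinase, the main control point of glycolysis, has liver, muscle and platelet forms, and of these only the liver form Pfkl passed, in both comparisons. Pfkl stood at 10.70, 10.81 and 10.87 in db/db 110, 111 and 112 and at 11.48, 11.68 and 11.50 in db/db 409, 410 and 411, against 9.85 through 10.20 to 10.58 in db/+. All 6 db/db arrays were above all 7 db/+ arrays. The difference was 0.98 (SE 0.18, 1.97-fold, limma adjusted p = 0.00179) over all arrays and 0.87 (SE 0.25, 1.83-fold, limma adjusted p = 0.046) against db/+ 105, 404 and 407. The second value passed without db/db 110 or 111 and was lost when any 1 of the other 7 arrays was left out, with adjusted p up to 0.134 and differences of 0.77 to 1.01.

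The muscle form Pfkm averaged 10.30 ± 0.90 in db/db (SD, n = 6) and 11.12 ± 0.55 in db/+ (SD, n = 7), a difference of -0.82 (SE 0.38, limma adjusted p = 0.127). Without db/db 411, which had the highest muscle list mean of the db/db arrays, it was -1.15 (limma adjusted p = 0.0134). The platelet form Pfkp averaged 9.34 ± 0.36 in db/db and 9.46 ± 0.39 in db/+, a difference of -0.12 (limma adjusted p = 0.686). Among the 3 forms the values were therefore uneven, with 1 gene higher in db/db and 2 that did not pass, and no test compared the forms with each other.

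Pfkfb3 makes fructose 2,6-bisphosphate, the activator of phosphofructokinase. It ranged from 11.13 through 11.77 to 11.92 in db/db, against 10.48 through 10.64 to 11.42 in db/+. The groups overlapped, with db/db 409 (11.13) below db/+ 103 (11.17) and db/+ 404 (11.42). The difference was 0.85 (SE 0.17, 1.80-fold, limma adjusted p = 0.00394) over all arrays and 0.78 (SE 0.22, 1.72-fold, limma adjusted p = 0.0461) against db/+ 105, 404 and 407. The second value passed only without db/+ 404 or without db/db 409 when 1 of the 9 arrays was left out, with adjusted p up to 0.162 and differences of 0.65 to 1.05.

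Triosephosphate isomerase, encoded by Tpi1, interconverts the triose phosphates in the middle of the pathway. Tpi1 stood at 12.73 through 12.76 to 12.80 in db/db, against 12.14 through 12.45 to 12.55 in db/+, so that the db/db arrays lay close together and above every db/+ array. The difference was 0.35 (SE 0.08, 1.28-fold, limma adjusted p = 0.006) over all arrays and 0.38 (SE 0.10, limma adjusted p = 0.0417) against db/+ 105, 404 and 407. The second value passed only without db/+ 407 when 1 array was left out, with adjusted p up to 0.116 and differences of 0.26 to 0.46. The aldolase genes did not pass in either comparison. Aldoa, the main aldolase of most tissues, averaged 13.67 ± 0.09 in db/db (SD, n = 6) and 13.49 ± 0.10 in db/+ (SD, n = 7), a difference of 0.18 (limma adjusted p = 0.0829).

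Aldoc, the aldolase of brain and other neural tissue, separated the db/+ arrays. It ranged from 6.91 through 7.77 to 8.10 in db/db and was 7.94, 7.27 and 7.21 in db/+ 105, 404 and 407, while db/+ 101, 103, 104 and 106 had 11.26, 11.40, 11.26 and 11.77. The difference was -2.03 (SE 0.81, limma adjusted p = 0.0838) over all arrays and 0.23 (SE 0.27, limma adjusted p = 0.64) against db/+ 105, 404 and 407. Leaving out db/+ 404 or db/+ 407 brought the first value past the threshold, at -2.44 and -2.45 (limma adjusted p = 0.0338 and 0.0293).

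**Figure D2:**
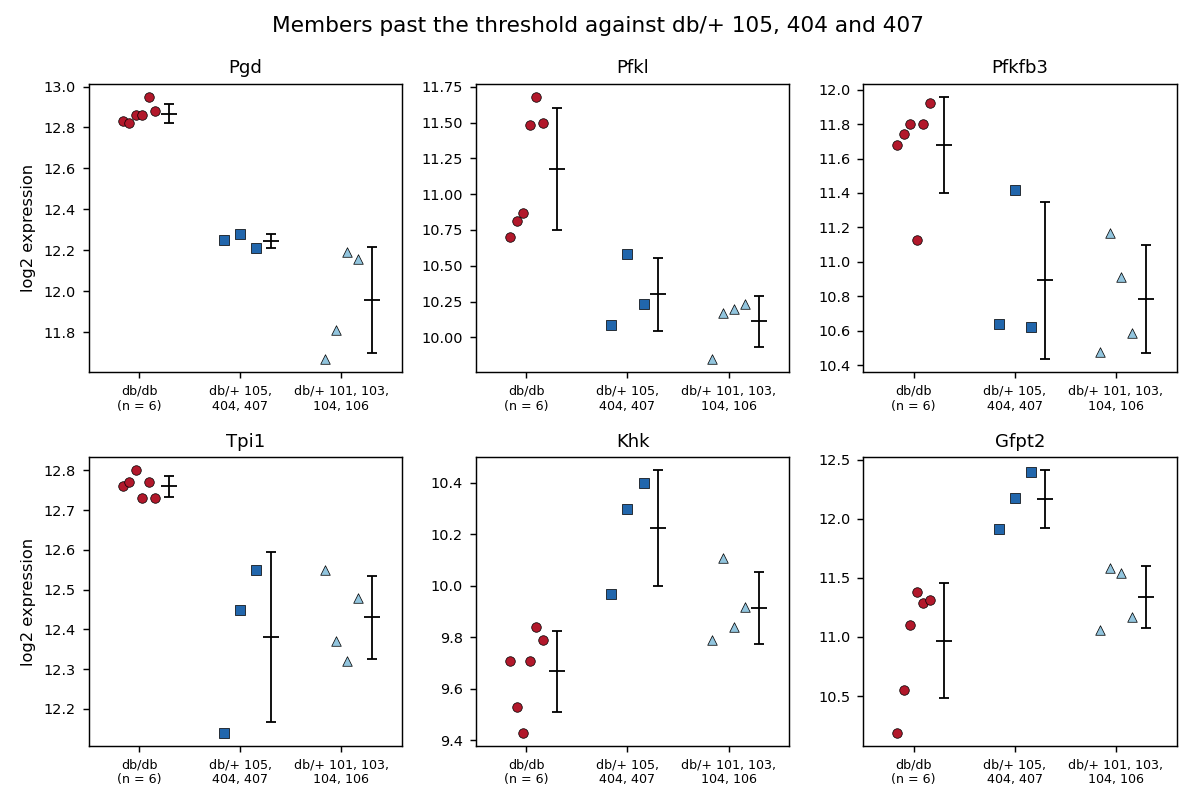
Log2 expression (vertical axis) of the 6 genes that passed against db/+ 105, 404 and 407, per array, in db/db (circles), db/+ 105, 404 and 407 (squares) and db/+ 101, 103, 104 and 106 (triangles), with mean and SD beside each set. Pgd at 12.82 to 12.95 in db/db lies above every db/+ array, and Gfpt2 at 10.19 to 11.38 in db/db lies below the squares at 11.91 to 12.40 but overlaps the triangles.

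In lower glycolysis, 4 of 8 genes were measured, and 1 of them was lower in db/db over all arrays. Eno2, the neuronal enolase, ranged from 11.00 through 11.45 to 11.86 in db/db, against 12.16, 12.12 and 11.97 in db/+ 105, 404 and 407 and 13.27 to 13.60 in the other db/+ arrays. Every db/db array was below every db/+ array. The difference was -1.41 (SE 0.30, limma adjusted p = 0.00493) over all arrays and -0.65 (SE 0.19, limma adjusted p = 0.0535) against db/+ 105, 404 and 407. The second value just missed the threshold and passed without db/db 110 (-0.73, limma adjusted p = 0.0289) and with the muscle list mean as a covariate (-0.77, limma adjusted p = 0.0167). Pkm, which encodes the pyruvate kinase of most tissues other than liver, averaged 13.23 ± 0.14 in db/db (SD, n = 6) and 13.06 ± 0.19 in db/+ (SD, n = 7), a difference of 0.17 that did not pass (limma adjusted p = 0.237).

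The muscle phosphoglycerate mutase Pgam2 and the muscle enolase Eno3 followed the muscle list across arrays of both genotypes. Pgam2 ranged from 5.29 through 6.25 to 11.51 in db/db, against 5.67 through 7.81 to 11.31 in db/+, and Eno3 from 8.36 through 9.02 to 12.42 in db/db, against 8.86 through 9.70 to 12.16 in db/+. In db/db, both genes were highest in arrays 411 and 112, and in db/+, in arrays 101, 407 and 404, which have the 3 highest muscle list means of that genotype. The differences were -0.85 (SE 1.21, limma adjusted p = 0.64) for Pgam2 and -0.49 (SE 0.72, limma adjusted p = 0.651) for Eno3 over all arrays. With the muscle list mean as a covariate they were 0.25 and 0.15, and neither passed (limma adjusted p = 0.642 and 0.725).

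Ldhb, the lactate dehydrogenase subunit of heart and brain, was lower in db/db over all arrays. It ranged from 11.18 through 11.64 to 11.99 in db/db, against 11.74 through 12.88 to 13.10 in db/+, a difference of -0.93 (SE 0.22, limma adjusted p = 0.00917). In db/+ 105, 404 and 407 it was 12.21, 12.18 and 11.74, and the difference was -0.41 (SE 0.18, limma adjusted p = 0.172). Of the lactate transporters, Slc16a1 (MCT1), which glia express, averaged 10.40 ± 0.19 in db/db and 10.24 ± 0.31 in db/+, and Slc16a3 (MCT4), typical of glycolytic muscle and leukocytes, averaged 8.65 ± 1.24 in db/db and 7.67 ± 1.18 in db/+ (SD, n = 6 and 7). Neither passed in either comparison, with differences of 0.16 (limma adjusted p = 0.432) and 0.98 (SE 0.61, limma adjusted p = 0.262) over all arrays.

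**Figure D3:**
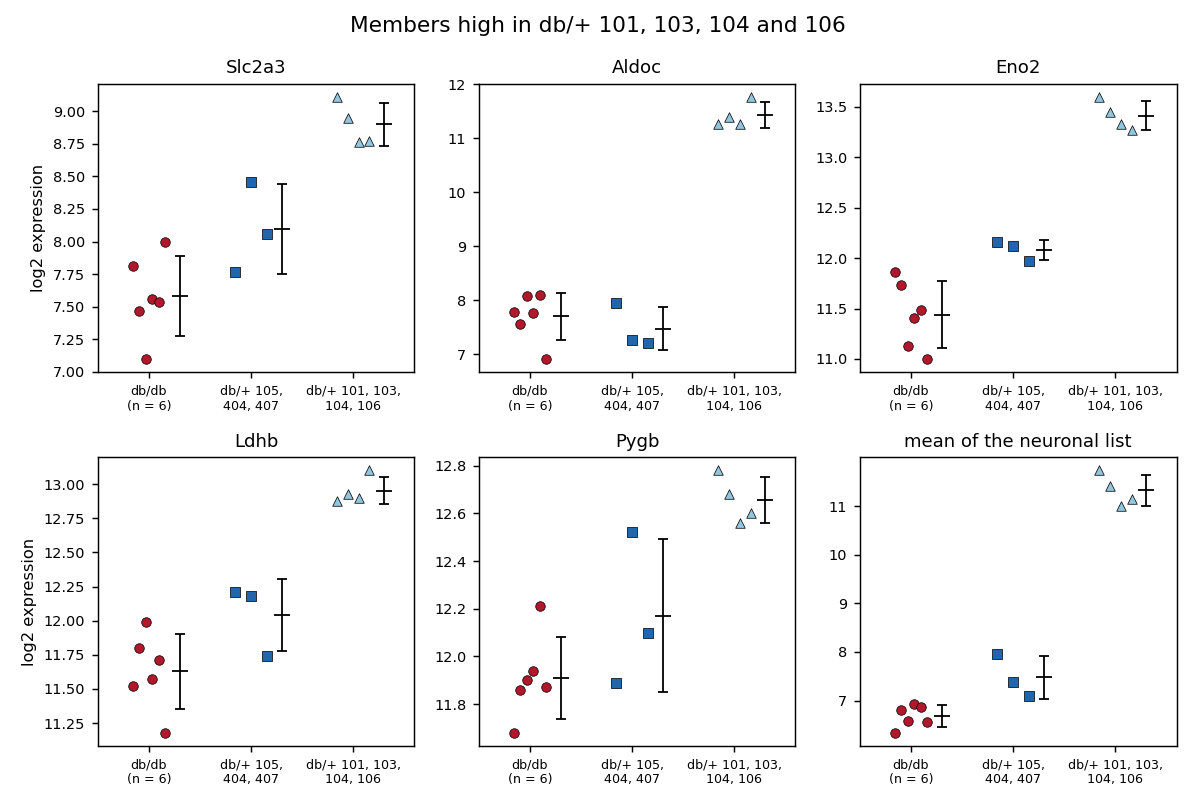
Log2 expression (vertical axis) of 5 genes and the mean of the neuronal list, per array, in db/db (circles), db/+ 105, 404 and 407 (squares) and db/+ 101, 103, 104 and 106 (triangles), with mean and SD beside each set. In every panel the triangles are highest, and for Aldoc the circles (6.91 to 8.10) and squares (7.21 to 7.94) overlap fully.

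Slc2a3, Aldoc, Eno2, Ldhb and Pygb were each highest in the 4 db/+ arrays with the high neuronal list mean. Of the 16 neuronal genes themselves, 14 were lower in db/db over all arrays (87.5%, beside 11.7% of all genes). Against db/+ 105, 404 and 407, 5 were lower (31.2%, beside 6.78%). The db/+ arrays were divided by this list, so the count over all arrays partly restates that division. None of the 33 measured genes belongs to that list. The part of neuronal transcripts in the differences of these 5 genes was not tested.

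Khk, the ketohexokinase that starts fructose breakdown, was lower in db/db in both comparisons. It ranged from 9.43 through 9.71 to 9.84 in db/db, against 9.79 through 9.97 to 10.40 in db/+. The db/db arrays lay below db/+ 105, 404 and 407 (9.97, 10.30 and 10.40) and overlapped with db/+ 101 (9.79) and 104 (9.84). The difference was -0.38 (SE 0.12, limma adjusted p = 0.0318) over all arrays and -0.55 (SE 0.13, limma adjusted p = 0.0256) against db/+ 105, 404 and 407. It was lost over all arrays without db/+ 103, db/db 111, db/db 112 or db/db 409 (adjusted p up to 0.067), and in the smaller comparison without db/+ 404 (-0.52, limma adjusted p = 0.0907) or db/+ 407 (-0.47, limma adjusted p = 0.0978).

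Fbp2, the muscle form of the gluconeogenic enzyme fructose-1,6-bisphosphatase, showed the largest difference among the genes that passed over all arrays. It ranged from 7.36 through 7.97 to 10.45 in db/db, against 6.07 through 6.55 to 8.02 in db/+, and only db/+ 407 (8.02) reached into the middle of the db/db values. The difference was 1.59 (SE 0.46, 3.02-fold, limma adjusted p = 0.0243) over all arrays and 1.45 (SE 0.66, limma adjusted p = 0.188) against db/+ 105, 404 and 407. The highest Fbp2 values were 10.45 in db/db 411 and 8.65 in db/db 112, both high in muscle transcripts. Next came 8.11 in db/db 410, with a muscle list mean of 6.46, and 8.02 in db/+ 407, with 10.13. In db/+ 101, with the highest muscle list mean of 11.51, Fbp2 was 6.42. With the muscle list mean as a covariate the differences were 1.89 (limma adjusted p = 0.00418) and 1.96 (limma adjusted p = 0.0149). The cause of the Fbp2 difference was not tested.

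**Figure D4:**
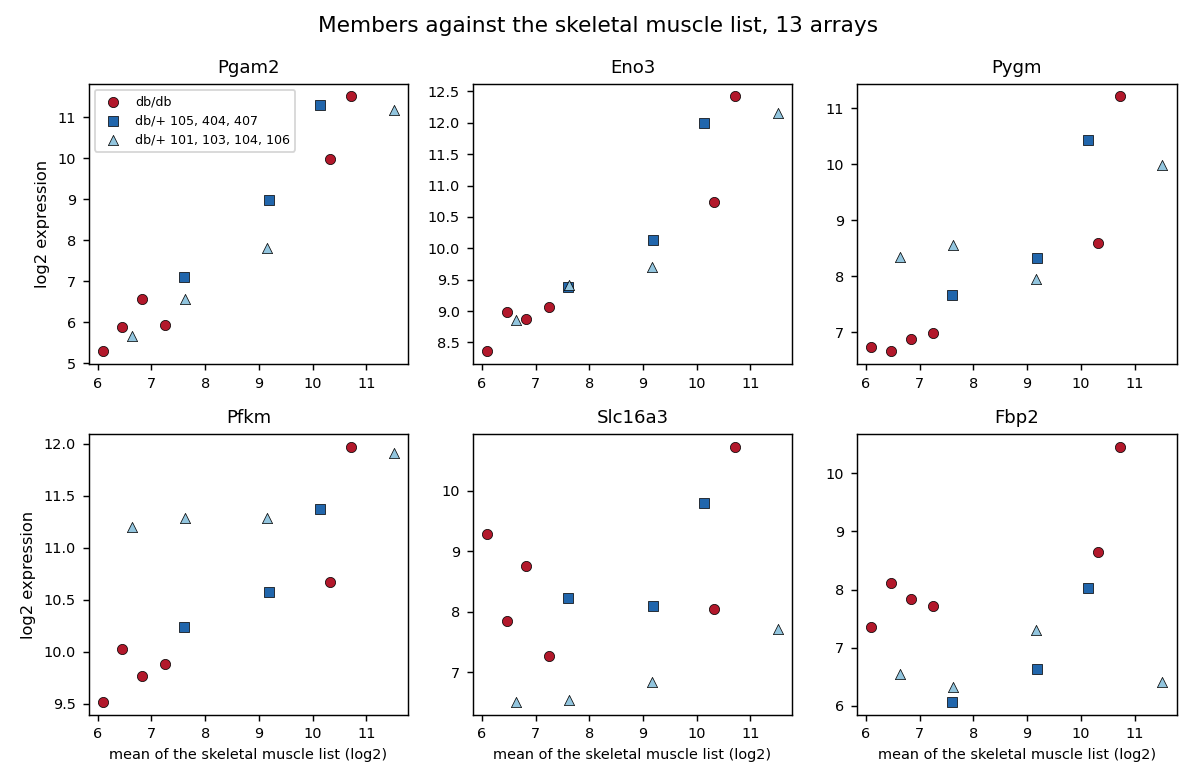
Log2 expression of 6 genes (vertical axes) against the mean of 21 skeletal muscle genes (horizontal axes, log2), 1 point per array, in db/db (circles), db/+ 105, 404 and 407 (squares) and db/+ 101, 103, 104 and 106 (triangles). Pgam2 and Eno3 rise with the muscle list in both genotypes. Fbp2 is highest in db/db 411 (10.45) and db/db 112 (8.65), which are also high in the muscle list. It is 8.11 in db/db 410, which is low in that list, 8.02 in db/+ 407, and 6.42 in db/+ 101, the array farthest to the right.

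The other genes of this group did not pass. Pck1, which encodes the cytosolic phosphoenolpyruvate carboxykinase, averaged 9.65 ± 0.52 in db/db and 9.51 ± 0.98 in db/+ (SD, n = 6 and 7), a difference of 0.14 (limma adjusted p = 0.831). Pcx, the pyruvate carboxylase gene, averaged 8.38 ± 0.33 in db/db and 7.95 ± 0.40 in db/+, a difference of 0.42 (SE 0.20, limma adjusted p = 0.132). Pdha1, a subunit of the pyruvate dehydrogenase that feeds the citric acid cycle, averaged 11.38 ± 0.09 in db/db and 11.35 ± 0.17 in db/+, a difference of 0.02 with an SE of 0.09 (limma adjusted p = 0.867).

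Among 6 glycogen genes, 1 was lower in db/db over all arrays, and in limma 0 passed against db/+ 105, 404 and 407 (1, Gbe1, had an unadjusted p under 0.05). Pygb, the brain form of glycogen phosphorylase, ranged from 11.68 through 11.89 to 12.21 in db/db, against 11.89 through 12.56 to 12.78 in db/+. The difference was -0.54 (SE 0.15, limma adjusted p = 0.0182) over all arrays and -0.26 (SE 0.16, limma adjusted p = 0.315) against db/+ 105, 404 and 407, which had 11.89, 12.52 and 12.10. The other forms did not pass over all arrays. The liver form Pygl averaged 12.53 ± 0.12 in db/db (SD, n = 6) and 12.10 ± 0.41 in db/+ (SD, n = 7), a difference of 0.43 (SE 0.17, limma adjusted p = 0.079) that passed without db/+ 404 (0.50, limma adjusted p = 0.0424). The muscle form Pygm averaged 7.84 ± 1.80 in db/db and 8.75 ± 1.04 in db/+, a difference of -0.91 (SE 0.73, limma adjusted p = 0.386) that passed without db/db 411 (-1.58, limma adjusted p = 0.0482). No glycogen synthesis gene of the set passed, while Gys2 and Gyg, outside the set, are given below. The differences over all arrays were 0.17 (SE 0.18) for the synthase Gys1, 0.28 (SE 0.17) for the branching enzyme Gbe1 and 0.10 (SE 0.08) for Ugp2, which makes UDP-glucose, none past the threshold.

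Pgd had the smallest adjusted p of the 33 genes in both comparisons. It encodes 6-phosphogluconate dehydrogenase, which makes NADPH in the oxidative branch of the pentose phosphate pathway. The db/db arrays 110, 111, 112, 409, 410 and 411 had 12.83, 12.82, 12.86, 12.86, 12.95 and 12.88, against 11.67, 11.81, 12.19, 12.25, 12.16, 12.28 and 12.21 in db/+ 101, 103, 104, 105, 106, 404 and 407. The lowest db/db array was 12.82 and the highest db/+ array 12.28, so that the groups were farther apart than the db/db arrays were from each other. The difference was 0.79 (SE 0.11, 1.72-fold, limma adjusted p = 0.000272) over all arrays and 0.62 (SE 0.08, 1.54-fold, limma adjusted p = 0.00199) against db/+ 105, 404 and 407. The call held when any 1 array was left out in either comparison, with differences of 0.60 to 0.64 in the smaller one. The adipocyte list mean was also higher in every db/db array than in every db/+ array, and its part in this difference was not tested.

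Taldo1, the transaldolase of the non-oxidative branch, was higher in db/db over all arrays. It ranged from 12.28 through 12.43 to 12.61 in db/db, against 11.66 through 12.17 to 12.38 in db/+, a difference of 0.35 (SE 0.11, limma adjusted p = 0.036). The call over all arrays held only without db/+ 105, 404 or 407 or without db/db 111 or 112 when 1 array was left out, with adjusted p up to 0.0772, and against db/+ 105, 404 and 407 the difference was 0.17 (SE 0.10, limma adjusted p = 0.331). Tkt, the transketolase of the same branch, averaged 12.49 ± 0.12 in db/db (SD, n = 6) and 12.55 ± 0.15 in db/+ (SD, n = 7). Its difference of -0.06 (SE 0.09, limma adjusted p = 0.675) was opposite in sign to those of Pgd and Taldo1.

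The hexosamine pathway turns fructose 6-phosphate into the precursor of protein glycosylation, and its first enzyme has 2 genes. Gfpt2 ranged from 10.19 through 11.20 to 11.38 in db/db, against 11.06 through 11.58 to 12.40 in db/+. In db/+ 105, 404 and 407 it was 11.91, 12.18 and 12.40, above every db/db array, while the other db/+ arrays, at 11.06 to 11.58, overlapped with db/db. The difference was -0.72 (SE 0.26, limma adjusted p = 0.0545) over all arrays and -1.19 (SE 0.27, 2.29-fold lower, limma adjusted p = 0.0211) against db/+ 105, 404 and 407. The first value passed without db/+ 101 (-0.83, limma adjusted p = 0.0363) or db/+ 106 (-0.81, limma adjusted p = 0.0479), and the second was lost without db/+ 404 (-1.19, limma adjusted p = 0.0707) or db/+ 407 (-1.07, limma adjusted p = 0.0827). Gfpt1 averaged 7.08 ± 0.40 in db/db (SD, n = 6) and 6.78 ± 0.50 in db/+ (SD, n = 7), a difference of 0.30 that did not pass (limma adjusted p = 0.382).

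The sample numbers form a lower series (101 to 112, with 3 db/db and 5 db/+ arrays) and a higher one (404 to 411, with 3 db/db and 2 db/+ arrays), and what they mark is not stated. Within the lower series 11 of the 33 genes passed, beside 18.5% of all genes, and within the higher series 4 passed, beside 9.10% of all genes. The 4 were Pfkl (1.15, limma adjusted p = 0.0207), Pgd (0.65, limma adjusted p = 0.0282), Khk (-0.57, limma adjusted p = 0.0412) and Gfpt2 (-0.96, limma adjusted p = 0.0189). In the lower series the same genes differed by 0.68, 0.82, -0.37 and -0.84 (limma adjusted p = 0.0104, 0.0145, 0.0544 and 0.0546). The difference between the series, tested as an interaction, passed for 0 of the 33 genes in limma (lowest adjusted p = 0.242), and 3 had an unadjusted p under 0.05, as 15.3% of all genes did. The 3 were Pfkp (1.09 more in the higher series), Aldoc (3.28 more) and Pfkl (0.47 more). The arrays high in neuronal transcripts, db/+ 101, 103, 104 and 106, all lie in the lower series. Among the db/+ arrays, a difference between the series therefore cannot be told apart from that division. The db/db arrays have no part in it. Pfkl was 10.70 to 10.87 in db/db 110, 111 and 112 and 11.48 to 11.68 in db/db 409, 410 and 411. In the same 2 sets Pfkp was 8.84 to 9.22 and 9.44 to 9.76, and Aldoc 7.56 to 8.07 and 6.91 to 8.10. In db/+ 101, 103, 104 and 106 Aldoc was 11.26 to 11.77, and in db/+ 105, 404 and 407 it was 7.21 to 7.94.

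The other genes of these pathways were taken from a list of 111, of which 96 were measured. Over all arrays 18 were higher in db/db and 5 lower (24.0% in all, beside 25.1% of all genes), and against db/+ 105, 404 and 407 13 were higher and 1 lower (14.6%, beside 12.9%). Counted together the shares lay near those of all genes, but the higher calls were 18.8% beside 13.4% and 13.5% beside 6.12%, with no test of the list.

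In both comparisons 11 of the 96 genes were higher and 1 was lower, beside 802 and 634 of all 15437 genes. Pentose phosphate genes were among the 11. Rpe, which interconverts the pentose phosphates, ranged from 9.96 to 10.18 in db/db, against 8.87 to 9.57 in db/+, and differed by 0.86 (SE 0.11, limma adjusted p = 0.00017) over all arrays and 0.73 (SE 0.11, limma adjusted p = 0.00376) against db/+ 105, 404 and 407. Rbks, the ribokinase gene, differed by 0.59 and 0.53 (limma adjusted p = 0.00232 and 0.0469). H6pd, and Slc2a1 among the transporters, were chosen after their values were seen. H6pd, which makes NADPH in the endoplasmic reticulum, averaged 12.58 ± 0.21 in db/db (SD, n = 6) and 11.79 ± 0.40 in db/+ (SD, n = 7) and passed over all arrays (0.80, limma adjusted p = 0.00592) but not in the smaller comparison (0.50, limma adjusted p = 0.0614). Of the 10 other pentose phosphate genes measured, 3 were higher and 0 lower over all arrays (30.0% and 0%, beside 13.4% and 11.7% of all genes). Against db/+ 105, 404 and 407, 2 were higher and 0 lower (20.0% and 0%, beside 6.12% and 6.78%).

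Among glycogen genes outside the set, Gys2 and Gyg were higher in both. Gys2, the liver form of glycogen synthase, ranged from 8.26 to 9.15 in db/db, against 4.79 to 8.10 in db/+, a difference of 1.84 (SE 0.49, limma adjusted p = 0.0157) over all arrays and 1.55 (SE 0.30, limma adjusted p = 0.0107) against db/+ 105, 404 and 407. Gyg, the glycogenin that primes the glycogen particle, differed by 0.47 and 0.73 (limma adjusted p = 0.0229 and 0.00912). Of the 20 other glycogen genes measured, 3 were higher and 3 lower over all arrays (15.0% and 15.0%, beside 13.4% and 11.7% of all genes). Against db/+ 105, 404 and 407, 3 were higher and 0 lower (15.0% and 0%, beside 6.12% and 6.78%).

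At the branch of pyruvate, Dlat, a subunit of pyruvate dehydrogenase, differed by 0.59 and 0.75 (limma adjusted p = 0.00418 and 0.0101), and Pdk4, the kinase that switches that enzyme off, by 0.46 and 0.50 (limma adjusted p = 0.00864 and 0.0398). Both were higher in db/db. Tigar, a phosphatase that lowers fructose 2,6-bisphosphate, differed by 0.53 and 0.56 (limma adjusted p = 0.00934 and 0.0373), the same direction as Pfkfb3, which raises it. Minpp1, an inositol polyphosphate phosphatase that also acts on 2,3-bisphosphoglycerate, differed by 0.26 and 0.35 (limma adjusted p = 0.0274 and 0.047). Gpd1, the glycerol 3-phosphate dehydrogenase gene that links glycolysis to lipid synthesis and is abundant in fat, differed by 0.77 and 0.49 (limma adjusted p = 0.0181 and 0.0299).

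Among the regulators, Hif1a and Epas1, the hypoxia-inducible factor genes, were higher in both. Hif1a ranged from 9.54 to 9.95 in db/db, against 8.69 to 9.32 in db/+, and differed by 0.68 (SE 0.11, limma adjusted p = 0.00126) over all arrays and 0.65 (SE 0.13, limma adjusted p = 0.0116) against db/+ 105, 404 and 407. Epas1 differed by 0.67 and 0.44 (limma adjusted p = 0.0064 and 0.0398). The gene lower in both was Slc2a12 (GLUT12), a glucose transporter, at 5.20 to 5.75 in db/db, against 5.98 to 6.93 in db/+, with differences of -0.88 (SE 0.15, limma adjusted p = 0.00141) and -0.69 (SE 0.14, limma adjusted p = 0.0133). Slc2a1 (GLUT1), the main glucose transporter of the nerve barrier, averaged 12.93 ± 0.09 in db/db and 12.94 ± 0.15 in db/+ (SD, n = 6 and 7), a difference of -0.01 with an SE of 0.08 (limma adjusted p = 0.928). Of the 5 measured genes of the polyol and methylglyoxal routes, 0 passed in limma in either comparison (2 and 0 had an unadjusted p under 0.05), and of the 8 other hexosamine genes likewise 0 passed (1 and 1).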

How the data were processed

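RNA was isolated from the nerve, amplified and hybridised to Affymetrix arrays of 1 colour, per the labels' protocols. The authors deposited log2 expression levels made with RMA, per the submitters' processing notes. RMA removes background, brings arrays to a common distribution and combines the probes of a gene. Its version, the array platform and how probe sets were defined are not stated, and without detection calls dim genes were not separated from background. Of 15479 probe sets, 42 Affymetrix controls were left out of the tests. Among the 15437 that remained, 14801 had 1 gene symbol in the annotation used, and 636 had none and are not named here. Array medians lay between 8.63 and 8.71, correlations between the 78 pairs of arrays between 0.894 and 0.989, and 0 pairs were identical. The number of arrays limits the precision.

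Every gene was fitted with limma 3.58.1 (lmFit, eBayes, R 4.3.3). Tests were two-sided at a Benjamini-Hochberg threshold of 0.05 across the 15437 genes, and standard errors are those of the fit. The members, the other gene lists and the choice of db/+ 105, 404 and 407 were made with earlier results of these data known. Every measured member is given. Of the other pathway genes, those past the threshold in both comparisons are named, at most the 12 with the smallest p. The fit was tested on simulated data with known changes, 1 simulated set per comparison. Over all arrays 5 of 179 calls were false, and 78% of the changes of 1 on the log2 scale were recovered. In the smaller comparison 17 of 188 calls were false, and 76% of these changes were recovered. Alternatives were moderation with an intensity trend, renewed quantile normalization, median centring, the brighter genes alone, array weights, a block for the number series, each series alone, the muscle list mean as a covariate, a minimum difference of 0.5, and leaving out each array or the 4 with the highest muscle list means. Promoter windows came from RefSeq (GRCm38.p6). Python 3.11.15, pandas 2.3.3, numpy 2.4.6 and matplotlib 3.10.9 served for the rest.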

Additional observations from a re-analysis of the deposited data

Results flagged for a closer look

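Of 66 groups of values examined, 2 had an array far from the rest, where chance alone flags about 1 in 20 groups. Hk1 was 6.81 in db/+ 105, the lowest of the db/+ arrays, while the other db/+ arrays had 7.65 to 7.94. Pfkfb3 was 11.13 in db/db 409, the lowest of the db/db arrays, while the other db/db arrays had 11.68 to 11.92.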

How the results depend on the processing

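No call changed direction under any alternative run. Over all arrays, where 3867 genes passed, 2404 passed among the brighter genes alone (fewer genes were tested), 6525 with array weights, 1404 in arrays 404 to 411 and 2427 without the 4 arrays with the highest muscle list means (both on fewer arrays). The 12 of 33 pathway genes became 4 in arrays 404 to 411. Against db/+ 105, 404 and 407, where 1992 genes and 6 of the 33 passed, 543 and 2 passed without those 4 arrays, and 1164 to 1749 and 2 to 5 passed when each array was left out in turn, with the fewest without db/+ 404 or db/+ 407 (2 of the 33 each). Leaving out db/+ 105, db/db 112, db/db 410 or db/db 411 left 3 of the 33. Median centring turned the split of all calls in the smaller comparison to 1137 higher and 827 lower, from 945 and 1047, and that of the pathway genes over all arrays to 9 and 4, from 7 and 5. For single pathway genes, 41 alternatives over all arrays lost a call, 22 gained one and 687 did neither. In the smaller comparison 38 lost a call, 10 gained one and 504 did neither. Where not stated, the cause was not tested. No paired analysis was possible because db/db and db/+ samples share no sample number. With the number series as a block, Gfpt2 passed over all arrays (-0.89), Hk3 did not (0.80), and Eno2 passed in the smaller comparison (-0.68). Also in the smaller comparison, Pfkfb3 was lost with renewed quantile normalization. With array weights Pfkfb3 and Tpi1 were lost there and Eno2 passed.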
